A study of Drosophila melanogaster with 48 samples.

Results

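The regions described here are Zelda (Zld) peaks found in UAS-HA-Zld larval brains that shared no base with any peak of brat larval brains and that lay in the interior of a gene. A peak counted as 1 distinct interval. It was placed inside a gene when its middle fell within an annotated gene of the fly RefSeq set (build dm6) and more than 500 bp from every gene end, on arms 2L, 2R, 3L, 3R and X. Of the 9065 peaks in the UAS-HA-Zld list, 1479 met this rule. They made up 49.8% of the 2969 unmatched UAS-HA-Zld peaks on these arms (Wilson 95% interval 48.0 to 51.6), beside 836 between genes and 654 within 500 bp of a gene end. The regions were thus chosen by 2 measured values, their presence in the UAS-HA-Zld list and the lack of an overlapping brat peak, and by their place, so their number and place are descriptions and were not tested.

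The series holds 48 samples profiled by CUT&RUN, an assay in which an antibody guides a nuclease to a chromatin protein and the DNA cut out around it is sequenced. Of these, 42 came from S2 cells and 6 from brains, and the 4 brain samples with an anti-Zld antibody are used here. They form 2 conditions of 2 replicates. The first, UAS-HA-Zld, is named for an HA-tagged Zld placed under UAS control, and the second is named brat. Both conditions carry 1 and the same genotype label, which names brat11/DF with Tub-Gal80ts, and UAS-HA-Zld over WorGal4. The separation of the conditions therefore rests on the sample titles. In that label brat11 is a mutant allele of brat, WorGal4 drives UAS transgenes in neuroblasts, and Tub-Gal80ts is a temperature-sensitive Gal4 inhibitor. Larvae (L3) were moved from 18°C to 33°C for 24 h, and 50 whole brains went into each reaction. The labelled cell type is type II neuroblasts, which peak lists cannot check against marker expression. Each condition has 1 peak list, so no difference between conditions could be set against replicate spread, and binding in more cells cannot be told apart from stronger binding per cell.

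Zld is a zinc-finger pioneer factor that binds nucleosomal DNA and opens chromatin before the embryonic genome is first transcribed. In the larval brain it is expressed in type II neuroblasts, the stem cells that produce neurons through intermediate progenitors, and it is known to help keep them undifferentiated. Enhancers in flies often lie in introns. The gene table gives no exons or strand, so introns, exons and start sites could not be told apart.

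Inside genes, the UAS-HA-Zld list held 4064 peaks, of which the 1479 unmatched ones were 36.4% (Wilson 95% interval 34.9 to 37.9). In the other direction, 626 of 3112 brat peaks inside genes were unmatched, which is 20.1% (18.7 to 21.6). The unmatched share of UAS-HA-Zld peaks was 48.5% between genes (46.1 to 50.9) and 20.5% at gene ends (19.1 to 21.9). These intervals cover counting error only. Estimated from the lowest background in each list, sequencing depth was 28.8 fragments in UAS-HA-Zld and 22.6 fragments in brat, 1.28 times higher in UAS-HA-Zld, and the part of depth in the larger unmatched share was not tested. The peaks of each list carry running numbers. In the UAS-HA-Zld list 2191 of 11256 numbers are absent and in the brat list 1846 of 9490, which is 19.5% of each. The sources used here do not say whether the authors filtered out these peaks, so a region beside an absent brat number may overlap a brat peak that was not analysed here. At 765 of the 1479 regions, or 51.7%, at least 1 brat number was absent between the neighbouring brat peaks. Similarly, 371 of the 626 unmatched brat peaks inside genes (59.3%) stood beside an absent UAS-HA-Zld number. Of all gaps between brat peaks, 18.8% held an absent number. That share counts gaps, whereas the 51.7% counts regions, and a gap with several regions enters it for each of them. Gap length was not taken into account either. These shares thus cannot tell whether absent brat numbers lie at the regions more often than elsewhere. The 714 regions with no absent brat number in their gap, called clear of absent numbers below, are given beside each main count. An absent number counts against every region in the same gap between brat peaks. Several regions that are not clear can thus share 1 absent number.

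The UAS-HA-Zld-only peaks inside genes were mostly of modest height. Their fold enrichment, the authors' ratio of pileup to local background at the summit, had a median of 3.01 and quartiles of 2.16 and 4.45, where shared UAS-HA-Zld peaks inside genes had a median of 4.48 and quartiles of 2.96 and 7.56. The pileup, the number of fragments over the summit, had a median of 163 in the unmatched and 320 in the shared peaks inside genes. Local background had a median of 53.8 fragments in the unmatched and 67.9 fragments in the shared peaks. The unmatched peaks between genes were close in height, with a median fold of 3.22 and a median pileup of 175 fragments, and those at gene ends had a median fold of 2.47 and a median pileup of 164 fragments. A fold of at least 10 was reached by 57 of the 1479 regions (3.85%), against 353 of 2585 shared peaks inside genes (13.7%). A fold below 2 was found for 278 of the 1479 regions (18.8%), against 176 shared peaks inside genes (6.81%).

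**Figure D1:**
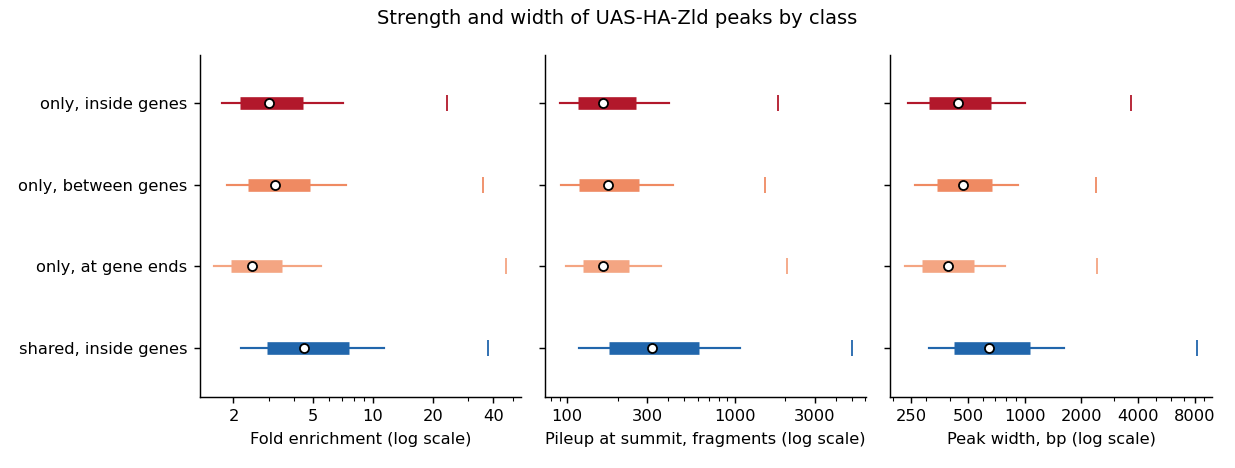
Fold enrichment, pileup at the summit and width (log axes) of 4 classes of peaks in the UAS-HA-Zld list. White points are medians, thick bars run between quartiles, thin bars between the 10th and 90th percentiles, and ticks mark the maximum. The unmatched peaks inside genes (median fold 3.01) resemble those between genes (3.22) and lie below the shared peaks inside genes (4.48).

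The regions were also narrower than the shared peaks inside genes and more often had 1 summit. A wider interval more readily shares a base with a brat peak, so the rule itself favours narrow regions. Its part in these differences was not tested. The median width was 444 bp in the unmatched and 648 bp in the shared peaks inside genes. A single summit was called in 888 of the 1479 regions (60.0%, Wilson 95% interval 57.5 to 62.5), against 1246 of 2585 shared peaks inside genes (48.2%, 46.3 to 50.1). Of the other regions, 408 had 2 summits, 115 had 3, and 68 had 4 or more, up to 10. Neighbouring summits within a region were a median of 292 bp apart, with quartiles of 220.5 and 385 bp. When all UAS-HA-Zld peaks inside genes were ranked by −log10 q and cut into 5 equal groups, the unmatched share was 60.5%, 47.4%, 36.2%, 27.2% and 10.7% of peaks from the weakest to the strongest group. The strongest group thus held 87 of the 1479 regions, all with a −log10 q of at least 261.8.

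The highest-ranking region lay inside run, a pair-rule gene for a Runx transcription factor (X, 20691264 to 20692260). It had 1 summit with 1771 fragments over a background of 74.5 fragments, a fold of 23.5. Its gap to the nearest brat peak was 0.340 kb, and 1 brat number was absent there. The region inside the Hox gene Antp (3R, 6978175 to 6978796) also had a single summit, with 1810 fragments and a fold of 18.8, and lay 0.633 kb from a brat peak with 1 absent number. These were peaks of 997 and 622 bp with pileups above the 90th percentile of the shared peaks inside genes, which was 1070.6 fragments.

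Others in the top 5 had several summits of unequal height. In SKIP, which encodes a protein that interacts with the Shal potassium channel, the region (3R, 22151603 to 22154099) was 2497 bp wide and its 3 summits held 778, 695 and 1709 fragments, with folds of 10.4, 17.8 and 21.5. It lay 8.32 kb from the nearest brat peak, with 2 absent numbers. In Ten-m, the gene of a teneurin that matches synaptic partners, the region (3L, 22402307 to 22403975) had 4 summits of 62, 1632, 76 and 150 fragments. The second summit alone reached a fold of 21.6, and no brat number was absent. In jing, which encodes a zinc-finger transcription factor, the region (2R, 6554397 to 6556330) had 4 summits of 125, 1751, 437 and 203 fragments and a highest fold of 15.9, with 1 absent number.

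Ranks 6 to 10 lay inside CG14561 (3L, 22065823 to 22067126, fold 13.3, 2 summits of 1194 and 1122 fragments), koi, which encodes a SUN-domain protein of the nuclear envelope (fold 17.0, 904 fragments), the glycolytic aldolase gene Ald1 (fold 11.5, 1114 fragments), Rfx, a transcription factor gene of ciliated sensory neurons (fold 15.6, 866 fragments), and srp, the GATA factor gene of blood and fat body (fold 17.3, 819 fragments). The regions in CG14561, koi, Ald1 and Rfx were clear of absent brat numbers, and that in srp stood beside 1. The interval in CG14561 reached over an end of this gene, which is 1.31 kb long. Ranks 11 to 15 lay inside the non-coding gene lncRNA:CR32111 (fold 15.5), CG42342 (11.4), Notum (14.3), which encodes an enzyme that inactivates Wnt proteins, sli (14.4), the gene of the midline repellent Slit, and lncRNA:CR46006 (14.2). Of these 5 only the region in CG42342 was clear of absent numbers, which makes 6 of the 15 strongest. Pileups at ranks 11 to 15 were 803 to 991 fragments.

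The peaks next to the limits of the rule had folds of 1.501 to 3.66. The 2 nearest to a gene end, both at 510.5 bp, lay inside nkd (fold 1.76, 94 fragments) and cnk (fold 2.73, 221 fragments). Just outside, at 495.5 and 495 bp, were unmatched peaks in CG1677 and lncRNA:CR44357 (fold 2.50, 100 fragments) and in mub (fold 3.66, 172 fragments). The 2 regions closest to a brat peak lay inside Su(H), 3 bp from it (fold 1.501, 90 fragments), and inside tara, 59 bp from it (fold 2.19, 178 fragments). The shared peaks with the smallest overlap, 28 bp in Sema2b and 30 bp in olf413, had folds of 1.98 and 2.41. In 1456 of the 1479 regions the strongest summit also lay inside a gene and over 500 bp from its ends, and 7 intervals were wide enough to reach over a gene end.

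The middle of a region lay a median of 4776.5 bp from the nearest gene end, with quartiles of 1924.5 and 10106.5 bp, where shared peaks inside genes had a median of 3776 bp. The unmatched share of UAS-HA-Zld peaks was 25.8% at 0.5 to 1 kb from a gene end (172 of 666 peaks, Wilson 95% interval 22.6 to 29.3). It was 36.0% at 1 to 2 kb, 37.5% at 2 to 5 kb, 41.1% at 5 to 10 kb (37.8 to 44.4), 39.6% at 10 to 20 kb and 37.2% beyond 20 kb (32.4 to 42.3). Thus the share was lowest next to gene ends and its intervals overlapped one another from 1 kb inward. Unmatched brat peaks were 16.2% of brat peaks inside genes at 0.5 to 1 kb (13.3 to 19.6) and between 17.5% and 22.8% in the bins farther in. With only the regions clear of absent numbers, the UAS-HA-Zld shares in the same order were 15.7%, 21.3%, 22.6%, 25.1%, 24.4% and 19.0%.

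**Figure D2:**
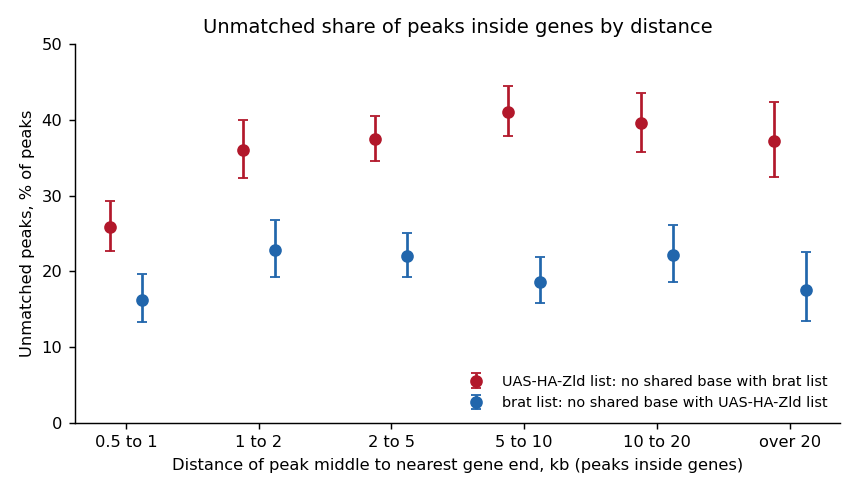
Share of peaks inside genes (%) that share no base with the other list, by distance of the peak's middle to the nearest gene end (kb), with Wilson 95% intervals. Red points are the UAS-HA-Zld list and blue points the brat list. The red share is 25.8% in the first bin and 36.0% to 41.1% in the others, and the blue share is 16.2% to 22.8% throughout.

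The regions often stood near other Zld peaks. The gap to the nearest brat peak had a median of 2729 bp and was at most 1 kb for 429 regions (29.0%) and at most 5 kb for 946 (64.0%). For 153 regions (10.3%) it exceeded 20 kb. The gap to the nearest shared UAS-HA-Zld peak had a median of 2999 bp, and that to the nearest other region of the class a median of 5149 bp. Joined over gaps of at most 5 kb, the 1479 regions formed 1028 runs, of which 281 held 2 or more regions and 17 held 5 or more. Gaps and runs were not computed for other classes of peaks, so they are not shown to be particular to the regions.

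The 2 runs with the most regions held 9 each, in siz and in lncRNA:CR44357. The gene siz encodes an Arf exchange factor that acts in axon guidance, and there the 9 regions spanned 12.4 kb (3L, 21052350 to 21064755) with no shared and no brat peak among them, with folds of 1.94 to 5.39, and all 9 were clear of absent numbers. A run of 6 in dlp, which encodes a glypican that binds secreted signals (3L, 14637624 to 14649508), also had no brat peak within it, with folds of 2.81 to 14.7. The same held for runs of 6 in Dscam3 (folds 2.91 to 9.16) and olf413 (2.09 to 4.61), and of 5 in robo2 (2.14 to 3.84) and Dscam1 (2.37 to 10.6), all clear of absent numbers. Runs of 6 in hth and in pxb had no brat peak within them either. At least 1 brat number was absent in the gap around each of these runs, so none of their regions was clear.

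The regions were spread over all 5 arms. Regions per Mb of gene interior, that is of gene sequence over 500 bp from every gene end, numbered 22.0 on X, 21.5 on 2L, 21.0 on 3L, 18.3 on 2R and 17.1 on 3R, and 19.8 over all 5 arms. The shared UAS-HA-Zld peaks per Mb were 42.8 on X and 30.9 to 35.5 on the autosomal arms. The median fold of the regions was between 2.90 and 3.08 on every arm.

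The regions lay in 726 of 13831 protein-coding genes on the 5 arms, which is 5.25%, and 438 genes held a region clear of absent numbers. Of the 1479 regions 1402 lay inside at least 1 protein-coding gene, and 52 of these lay inside 2 or more overlapping ones. A single region was found in 444 genes, 282 held 2 or more, 58 held 5 or more and 9 held 10 or more. Host genes had a median length of 20.2 kb, where all protein-coding genes had 2.15 kb. The share of genes with a region was 0.415% at up to 2 kb of length, 6.63% at 5 to 10 kb, 29.9% at 20 to 50 kb and 60.2% above 100 kb. Per Mb of interior the regions numbered 14.3 in genes of 5 to 10 kb, 21.5 at 20 to 50 kb, 21.9 at 50 to 100 kb and 19.3 above 100 kb, so density varied less with length than the share did. Of the host genes, 385 also held a shared peak in the interior and 153 an unmatched brat peak.

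**Figure D3:**
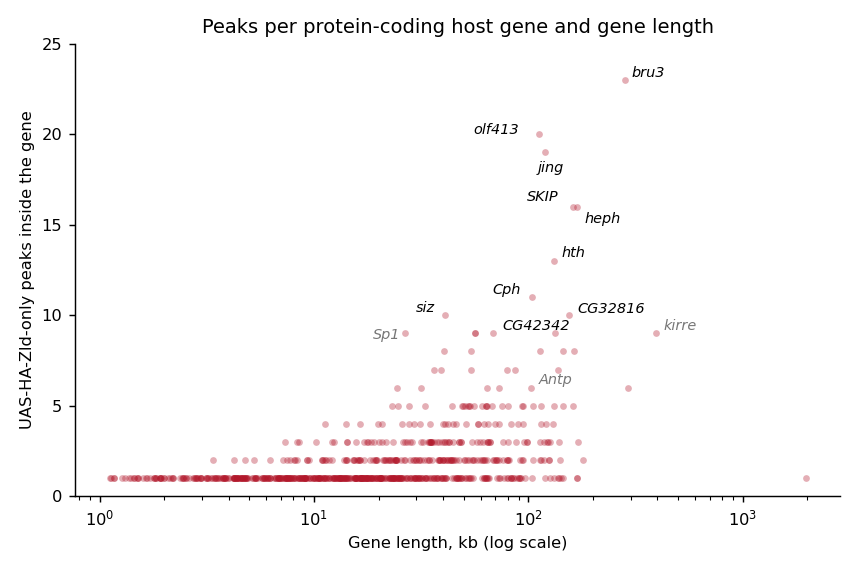
Unmatched UAS-HA-Zld peaks in the interior of each of 726 protein-coding host genes against gene length (kb, log axis). Each point is a gene, the 10 genes listed first by number of peaks are named in black, and 3 further genes in grey. bru3 holds 23 peaks at 281 kb, and siz (40.9 kb) and Sp1 (26.7 kb) hold 10 and 9.

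The 10 protein-coding genes listed first by number of regions held 147 of them, 9.94% of all, with the tenth place shared by several genes at 9 and taken by the one with the strongest region. They were led by bru3, a Bruno-family gene for an RNA-binding splicing regulator, with 23 regions of fold 1.65 to 9.47 in a gene of 281 kb. Next were olf413 with 20 (folds 1.38 to 4.61) and jing with 19 (1.81 to 15.9), followed by SKIP with 16 (1.54 to 21.5) and heph, which encodes the polypyrimidine tract binding protein, with 16 (1.48 to 7.08). Then came hth with 13, the gene of a homeodomain partner of Hox proteins, and Cph with 11, a zinc-finger transcription factor gene. CG32816 and siz held 10 each and CG42342 held 9. Absent brat numbers weighed unequally on these counts. The regions clear of them numbered 4 in bru3, 9 in olf413, 9 in jing, 1 in SKIP, 4 in heph, 3 in hth, 10 in Cph, 7 in CG32816, 10 in siz and 6 in CG42342. Regions in the same gap between brat peaks share its absent numbers. In bru3, for example, 3 numbers were absent between the brat peaks at 63.7 and 124.4 kb along the gene. These 3 counted against every region in that gap.

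The interiors of these genes held both the regions and shared peaks. In bru3 the regions lay from 22.1 to 272.6 kb along the gene, beside 9 shared peaks in the interior and no unmatched brat peak. In jing, 19 regions were set against 20 shared peaks and 1 unmatched brat peak in the interior, and the median fold of the regions was 4.29. In heph there were 12 shared and 3 unmatched brat peaks in the interior. The strongest region and the strongest shared peak in the interior had folds of 21.5 and 24.5 in SKIP, 10.2 and 20.5 in hth, and 7.08 and 7.11 in heph.

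**Figure D4:**
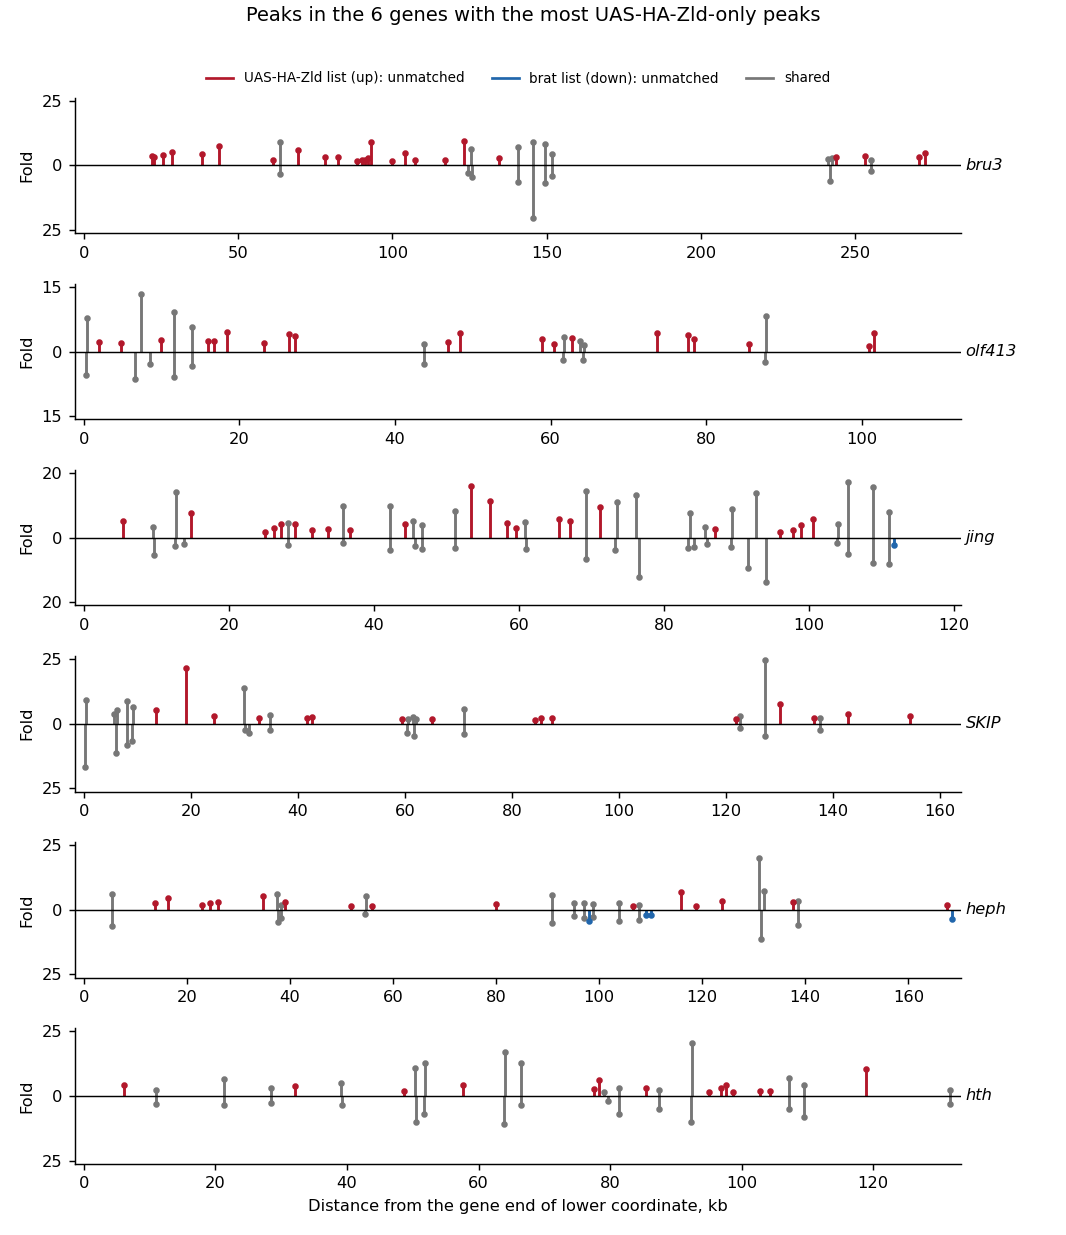
Peaks along the 6 protein-coding genes that held the most unmatched UAS-HA-Zld peaks, by distance from the gene end of lower coordinate (kb). Height is the authors' fold enrichment, upward for the UAS-HA-Zld list and downward for the brat list; red and blue stems share no base with the other list and grey stems do. Red stems stand at many positions in each gene, not always between grey ones. In bru3 they begin at 22.1 kb and the grey stems at 63.6 kb. No UAS-HA-Zld peak lies between 151.6 and 241.2 kb there. Blue stems are few (4 in heph, 1 in jing, none in the other 4).

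Of the 726 protein-coding host genes, 143 had no brat peak in the gene or within 500 bp of it, against 8832 of all 13831 protein-coding genes, and these 143 held 171 of the regions. Their median length was 8.14 kb, and 26 of them held 2 or more regions. No brat number was absent at any of the regions in 62 of the 143. The strongest among the 62 lay in CG14561 (fold 13.3), CG12541 (4 regions, highest fold 17.7), pwn (2 regions, highest fold 12.1), dpr10, which encodes an immunoglobulin-domain surface protein of neurons (2 regions, highest fold 10.96), CG2201 (13.3) and the pair-rule gene ftz (7.43). In ftz the interval (3R, 6863613 to 6866090) was wider than the gene itself and reached over one of its ends. In CG14561, a gene of 1.31 kb, the interval also reached over an end of the gene. Among the genes with absent numbers, srp held 3 regions (highest fold 17.3), Notum 2 (14.3) and pb, a Hox gene, 2 (8.48). These genes were named after their values were seen.

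Gene groups are described next by the number of members with at least 1 UAS-HA-Zld-only peak in the interior, against 5.25% of all protein-coding genes. Because length sets how many peaks a gene can hold, density per Mb of interior is given too, against 18.9 over all protein-coding genes for the unmatched peaks and 33.8 for the shared UAS-HA-Zld peaks. Over all protein-coding genes the median number of regions per gene was 0, and it was 1 in the type II neuroblast, intermediate progenitor, temporal, ecdysone and axon guidance groups and 0 in the other 8. A peak in overlapping genes counts for each, and some genes stand in more than 1 group.

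Genes linked to type II neuroblasts and self-renewal had 9 of 17 members with such a region (6 of 17 with regions clear of absent numbers) and a density of 110 per Mb. The group also includes pros and brat, and pros held 7 of its 33 regions. Shared peaks were dense in the same genes, at 164 per Mb. The strongest regions lay in pros, which encodes a homeodomain protein that drives progenitors out of division (7 regions, highest fold 7.02 with 698 fragments, 1 of 7 clear of absent numbers), and in brat itself (2 regions, highest fold 7.31, none clear). The ETS factor gene pnt had 5 (highest fold 4.58, none clear) and Sp1, a zinc-finger gene needed for type II fate, had 9 within 26.7 kb (highest fold 4.92, 5 of 9 clear). The interiors of dpn, wor, ase, sna, esg, mira, insc and l(1)sc held none. Apart from insc (14.8 kb) these genes are only 1.10 to 3.36 kb long. With 500 bp left out at each gene end, their interiors were short and could hold few peaks. Yet tll (2.09 kb) held 1 region and btd (3.37 kb) held 2, all clear of absent numbers. The part of gene length in the lack of regions was not tested. The stronger of the 2 regions in zld (X, 19777510 to 19778786) had a fold of 2.12 over a local background of 207 fragments, the second highest background of all 1479 regions. The highest, 350 fragments, was at a region inside w, a gene that lies within kirre. The transgene's own sequence matches zld and many fly transgenes carry w, and the part of transgene copies in these 2 regions was not tested.

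Of the temporal patterning genes, which mark the age of neuroblasts, 9 of 13 held a region, and 9 did so with regions clear of absent numbers. Their density was 55.3 per Mb for unmatched and 113 per Mb for shared peaks. Imp, which encodes an RNA-binding protein of young neuroblasts, had 7 regions, the strongest (X, 10811419 to 10812714) with a fold of 17.3 and 668 fragments. Of the 7 regions 4 were clear, but the strongest stood beside 2 absent numbers. The transcription factor genes br, pdm2 and mamo had 4, 4 and 5 regions with highest folds of 6.48, 7.90 and 5.52, of which 2, 1 and 3 were clear of absent numbers. In Syp, which encodes the RNA-binding protein that opposes Imp, there was 1 region (fold 3.91) beside 9 shared peaks in the interior. Among intermediate progenitor genes 7 of 11 held a region, 4 of 11 with those clear of absent numbers. Here the strongest lay in ham (fold 8.87, 662 fragments), hbn (6.21, not clear), fru (5.80, not clear) and the SWI/SNF subunit gene osa (3.12), and erm, whose product limits progenitor reversion, held 3 of low fold (highest 2.37), all clear of absent numbers.

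Ecdysone receptor and response genes held a region in 8 of 14 cases, which became 3 of 14 with regions clear of absent numbers. Eip75B, a nuclear receptor gene, had 8 regions (highest fold 6.26, 3 of 8 clear) beside 17 shared peaks, and ftz-f1, another nuclear receptor gene, had 5 (highest 9.15), none of them clear. Eip78C had 1 (6.78, 517 fragments) and Hr4 had 3 (highest 4.57), none of them clear either. In EcR itself there were 2 regions (highest 4.11) beside 17 shared peaks. Notch pathway genes held a region in 6 of 15 cases, 4 of 15 with those clear. The ubiquitin ligase gene neur had 3 regions (highest fold 7.08), numb, which encodes the inhibitor of Notch, had 3 (3.67, over a background of 181 fragments), the coactivator gene mam had 2 (4.07) beside 15 shared peaks, and N had 3 (5.53). Density was 39.2 per Mb in the ecdysone and 45.7 per Mb in the Notch group, below the 110 and 109 per Mb of shared peaks there.

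Early embryonic patterning genes, many of them short, held a region in 10 of 33 cases (8 of 33 with those clear) and had a density of 69.3 per Mb for unmatched and 81.2 per Mb for shared peaks. After run came ush, which encodes a cofactor of GATA proteins, with 5 regions (highest fold 12.2, 859 fragments), hth with 13 (10.2) and ftz with 1 (7.43, 591 fragments). Clear of absent numbers were 1 of the 5 in ush, 3 of the 13 in hth and the 1 in ftz. The strongest regions in ush and hth each stood beside 1 absent number. The mesoderm regulator twi had 2 regions (highest 7.83), both clear of absent numbers. Of the 8 Hox genes 3 held a region: Antp with 6, pb with 2 and lab with 1 (fold 2.93). With regions clear of absent numbers Antp alone was left, with 5. The Hox interiors had 28.4 unmatched and 28.4 shared UAS-HA-Zld peaks per Mb.

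Signalling genes held a region in 15 of 32 cases, 9 of 32 with those clear of absent numbers. The strongest lay in Stat92E, the transcription factor of the JAK/STAT pathway (fold 6.94, 770 fragments), aop, an ETS repressor gene downstream of receptor tyrosine kinases (2 regions, highest 7.66, 688 fragments), the FGF ligand gene bnl (2 regions, highest 8.42) and the Wnt receptor gene fz (2 regions, highest 6.39). The regions in Stat92E and aop were clear of absent numbers and those in bnl and fz were not. The BMP receptor gene tkv and the Wnt receptor gene fz2 held 5 regions each, with folds of at most 3.76 and 4.26. In this group the density was 44.3 per Mb for unmatched and 69.6 per Mb for shared peaks.

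Axon guidance and adhesion genes, with a median length of 49.9 kb, held a region in 22 of 33 cases, and in 13 of 33 with regions clear of absent numbers. Their 82 regions (a region in nested genes counted for each) came close in number to their 86 shared UAS-HA-Zld peaks, at 34.9 and 36.6 per Mb. Besides Ten-m with 5 regions, sli held 5 (highest fold 14.4), Dscam3 held 6 (9.16, 858 fragments) and the netrin receptor gene unc-5 held 4 (10.2). All regions in Ten-m and Dscam3 were clear of absent numbers, and none in sli or unc-5. The netrin gene NetB had 5 regions and no shared peak in its interior, with none of the 5 clear of absent numbers. The Slit receptor gene robo2 (40.4 kb) had 8 regions and robo3 (40.2 kb) had 2, while the shorter robo1 (8.45 kb) had none. RNA-binding protein genes held a region in 11 of 25 cases (8 of 25 clear), at 35.4 per Mb, and after bru3, Imp and heph the strongest lay in brat.

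Of the ion channel and synaptic genes, with a median length of 39.0 kb, 6 of 36 held a region and 2 of 36 a region clear of absent numbers. Of their 22 regions 16 lay in SKIP, and the density was 14.1 per Mb for unmatched and 19.2 per Mb for shared peaks. The others with the strongest regions were the GABA receptor gene Rdl (fold 6.65), the calcium channel subunit gene Ca-beta (4.59) and the potassium channel gene Sh (4.13), none of them clear. Among glial genes 3 of 14 held a region, with folds of at most 2.75 in Eaat1, 1.58 in nrv2 and 1.40 in loco, and repo and gcm held none. The count was 1 of 14 with a −log10 q of at least 5, and likewise without regions within 1000 bp of a brat peak. These glial genes are short in sum, so that their 4 regions gave 47.8 per Mb for unmatched and 3 shared peaks gave 35.8 per Mb. Of the 13 muscle genes, included as markers of another tissue, Zasp52 alone held regions (3, highest fold 7.35), none of them clear of absent numbers, at a density of 8.17 per Mb for unmatched and 19.1 per Mb for shared peaks.

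**Figure D5:**
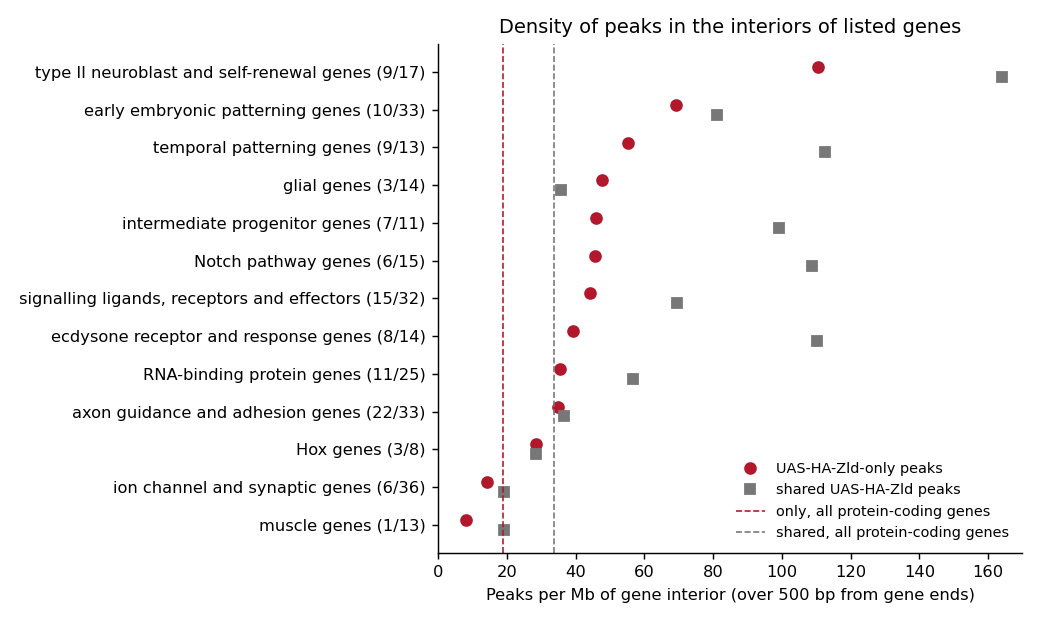
UAS-HA-Zld-only peaks (red circles) and shared UAS-HA-Zld peaks (grey squares) per Mb of gene interior in 13 gene groups, with the number of genes that hold an unmatched peak over the genes in the group. Dashed lines give the same densities over all protein-coding genes, 18.9 and 33.8 per Mb. The type II neuroblast and self-renewal group, which includes pros and brat, has the highest densities of both kinds (110 and 164 per Mb). Muscle genes have the lowest density of unmatched peaks (8.17 per Mb).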

How the data were processed

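CUT&RUN peaks from 4 anti-Zld brain samples were analysed as 1 deposited list per condition. Bowtie2, MACS2 and deepTools 3.5.1 with build dm6 are named, without roles, in the submitters' processing notes. The control, the filters and any pooling of replicates were not given in the sources used here. Each deposited list holds, per summit, the authors' whole-number score, the fold enrichment (a ratio), −log10 p and −log10 q values and the summit's offset. The deposited score was not used.

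A peak took the values of its summit with the highest −log10 q. Pileup and background were solved from fold, taken as pileup plus 1 over background plus 1, and −log10 p, taken as the Poisson probability of a higher pileup. This gave whole pileups within a relative tolerance of 0.0001 for 100% of peaks. The solver, the matching and the placing were checked on simulated data. Genes came from a RefSeq table of the same assembly. All tables were made with Python 3.11.15, numpy 2.4.6, pandas 2.3.3 and scipy 1.17.1. Shares carry Wilson 95% intervals.

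No test between conditions was possible with 1 list each. The regions and the 13 gene groups were chosen with earlier results of these data known. Named are the 15 strongest regions, the 10 genes with most regions, up to 4 genes per group by strength and the peaks next to each limit. Further genes were named after their values were seen. Genes on other chromosomes were left out, and sequences under the peaks were not analysed here.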

Additional observations from a re-analysis of the deposited data

How the results depend on the processing

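Of 78 recomputed summary values over 13 alternative settings, 59 stayed within 1.5 times (counts) or within the 95% interval of the value given (medians and shares). Leaving out regions beside an absent brat number left 714 regions in 438 protein-coding genes, since fewer peaks entered, and kept 6 of the 15 strongest regions. The median pileup of the 714 regions was 169.5 fragments, against 163 in the main setting, and why it differed was not tested. With limits of 250, 1000 and 2000 bp to gene ends, 56.3%, 44.0% and 36.7% of unmatched UAS-HA-Zld peaks lay inside genes, at median distances of 3847, 5679.5 and 6918.75 bp from a gene end, by construction. With protein-coding genes only that distance was 6013.5 bp. With −log10 q of at least 5 or 10 and with the UAS-HA-Zld list cut to the length of the brat list, the median fold was 3.16, 3.42 and 3.67 and the median pileup 172, 190 and 203 fragments, since weak peaks were dropped. It was 3.12 fold without regions within 1000 bp of a brat peak. Requiring brat peaks to cover 50% of a shared peak gave 3.13 fold and 170 fragments. With the UAS-HA-Zld list cut to the length of the brat list, 1079 regions in 586 protein-coding genes were left. Of the 10 genes with most regions, SKIP then held 10, heph 9, hth 8 and CG32816 6, each a change of more than 1.5 times. Over all settings, 116 of 130 counts of regions in these 10 genes stayed within 1.5 times. Among the counts of genes per group, 156 of 169 stayed within 1.5 times. The glial count was 1 of 14 under 4 settings, and the ecdysone count was 5 of 14 without regions within 1000 bp of a brat peak. The setting that leaves out intervals reaching over a gene end was chosen after seeing the data. The planned motif counts were not run, because no genome sequence was used here. No paired analysis was possible because each condition has 1 peak list. Depth, estimated from the lowest background, was 1.28 times higher in the UAS-HA-Zld list, and its part in the unmatched share was not tested. That share was largest among the weakest UAS-HA-Zld peaks inside genes.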

Other observations

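Non-coding genes also held such regions. Of the 1479 regions 77 lay inside no protein-coding gene, and 57 non-coding genes held at least 1. The long non-coding RNA gene lncRNA:CR44357 on X (239 kb) held 19, with a median fold of 4.44, beside 27 shared UAS-HA-Zld peaks in its interior. Within it, 9 regions spanned 18.2 kb with 2 shared peaks among them, and 6 of the 9 were clear of absent brat numbers. The non-coding genes lncRNA:CR32773 (224 kb) and lncRNA:CR44999 (150 kb), also on X, held 14 and 9. These counts include regions that also lie in protein-coding genes. lncRNA:CR44357 overlaps Cph (11 regions), lncRNA:CR32773 contains bi (6 regions) and lncRNA:CR44999 contains CG12535 (5 regions). The strongest region in srp lay within lncRNA:CR44133 as well, and the strongest region in sli within asRNA:CR46471. These genes were chosen after their values were seen.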
